A study of Mus musculus with 6 samples.

Results

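The uncoupling proteins and the mitochondrial ADP/ATP carriers are 5 of the 21959 genes in the expression table of mouse dorsal skin, namely Ucp1, Ucp2 and Ucp3 and the carriers Slc25a4 and Slc25a5. They were chosen by name as the genes of mitochondrial proton leak, and they were selected from the read counts of the comparison described here, so their levels and fold changes are given as a description without a test. The RNA came from the whole thickness of back skin of male C57BL/6 mice, shaved at 7 weeks of age in telogen, the resting phase of the hair cycle, and was sequenced in bulk. Vehicle (30% dipropylene glycol in 70% water) was applied to the back of 3 mice daily, and 3% rebamipide, a quinolinone drug used to protect the stomach lining, to that of 3 other mice. All skin was taken on day 7. The labels name no engineered allele, and every level is a mean over all cell types of the skin.

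The respiratory chain pumps protons out of the mitochondrial matrix, and ATP synthase uses their return to make ATP. UCP1, which brown and beige adipocytes make, lets protons return without ATP synthesis when fatty acids activate it, so that the energy is released as heat. UCP2 and UCP3 are its close relatives, and the ADP/ATP carriers exchange ADP for ATP across the inner membrane and also carry a proton leak that depends on fatty acids. The gene annotation deposited with the table assigned all 5 genes to oxidative phosphorylation uncoupler activity, a term that held 5 genes in all. It also assigned them to adaptive thermogenesis, which held 9 genes.

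The libraries differed in ways that bear on these genes. Total counts were 38676018 to 39915276 in the vehicle group and 32709801 to 34706852 in the rebamipide group, and genes of the mitochondrial genome took 2.59 to 5.36% and 13.28 to 21.96% of them. The markers of skin were not equally present. The summed FPKM (fragments scaled to gene length and library total) of 5 basal keratinocyte markers, led by Krt14, was 1259 to 2146 with vehicle and 449.3, 203.7 and 10.8 in rebamipide 1, 2 and 3, and Krt14 and Krt15 had 0 counts in rebamipide 3. The 5 suprabasal keratinocyte markers, led by Krtdap, summed to 558.1 to 3885 with vehicle and to 702.2, 416.8 and 1.11 with rebamipide, with Ivl at 0 counts in rebamipide 3. The library labelled rebamipide 3 therefore held very little of the epidermal transcripts that define skin, and the fold changes of the members are also given without it. In edgeR's quasi-likelihood test with Benjamini-Hochberg adjustment over the 14875 genes tested, 14.1% of genes were higher and 6.51% lower with rebamipide at an adjusted p under 0.05. TMM-normalized CPM are the counts scaled to the library total times its TMM factor. On that scale every rebamipide library lay above every vehicle library for 24.5% of the genes and below for 24%. Over all genes tested the log2 fold change had a median of −0.175 with TMM normalization and −0.78 with total counts alone, so a change is to be read against that shift.

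The promoters of the 3 uncoupling protein genes are shown because their transcripts took 3 different courses in the same libraries. Each line gives the 250 bases before the RefSeq transcription start (GRCm38.p6, plus strand), and capitals mark matches to the motifs searched.
Ucp1, chr8:83290098-83290347: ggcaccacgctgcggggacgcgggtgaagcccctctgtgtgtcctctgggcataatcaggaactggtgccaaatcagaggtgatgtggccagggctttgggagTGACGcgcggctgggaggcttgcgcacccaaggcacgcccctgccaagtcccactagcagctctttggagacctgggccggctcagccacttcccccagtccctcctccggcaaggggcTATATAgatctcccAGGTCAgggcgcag
Ucp3, chr7:100472741-100472990: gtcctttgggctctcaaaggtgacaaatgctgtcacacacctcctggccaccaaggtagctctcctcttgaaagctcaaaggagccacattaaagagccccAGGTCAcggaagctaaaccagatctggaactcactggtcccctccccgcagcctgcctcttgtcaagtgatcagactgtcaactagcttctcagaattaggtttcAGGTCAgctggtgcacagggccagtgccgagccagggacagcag
Ucp2, chr7:100493108-100493357: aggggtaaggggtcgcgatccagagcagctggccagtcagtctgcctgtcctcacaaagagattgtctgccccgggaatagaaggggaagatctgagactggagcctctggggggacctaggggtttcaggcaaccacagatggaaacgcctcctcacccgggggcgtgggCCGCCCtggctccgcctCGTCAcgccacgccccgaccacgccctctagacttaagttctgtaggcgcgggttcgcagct
Searched on both strands were AGGTCA, the core site of nuclear receptors, TGACG, the core site of CREB, CCAAT, the site of NF-Y, GGGCGG, known as the GC box, the TATA box forms TATAA as well as TATATA, which can overlap each other, and the E-box CACGTG. The Ucp1 window held TGACG with its first base 147 bases before the start, TATATA at 28 and AGGTCA at 14. The Ucp3 window held AGGTCA at 149 and at 44. The Ucp2 window held GGGCGG at 79 and TGACG at 62, both on the minus strand and printed as their reverse complements. Of 32851 RefSeq promoter windows of this length, AGGTCA occurred in 14%, TGACG in 17.8%, GGGCGG in 32.7% and TATATA in 5.25%. The windows of Ucp1 and Ucp2 held 64.8 and 63.6% G and C with 12 and 16 CpG sites, while that of Ucp3 held 54.8% with 3 CpG sites. These matches are a description of the letters and do not show that a factor binds there.

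Ucp1 (ENSMUSG00000031710) lies on the plus strand of chromosome 8 from 84016981 to 84025081 in the coordinates of the table, whose build the submitters' processing notes give as GRCm39. It had 0 counts in each of the 3 vehicle libraries. It had 81048, 220449 and 150572 counts in rebamipide 1, 2 and 3. The groups were therefore fully separated, with rebamipide 1 lowest and rebamipide 2 highest. The level was 1515, 3919 and 2652 FPKM in the 3 rebamipide libraries, or 2695 ± 1203 (SD, n = 3). Ranked by counts among all genes, Ucp1 was number 29, 7 and 13 in these libraries. With TMM-normalized CPM, the mean of the rebamipide group was at least 88372-fold higher than the 3 counts per library that a count of 0 allows. This is a lower bound of 16.43 on the log2 scale. Without the TMM factor, 3 counts were 0.0752 to 0.0776 CPM in the vehicle libraries, and the log2 bound with total counts alone was 15.79. The floor of 3 counts covers counting error only. The log2 lower bound was 16.01 without rebamipide 2 and 16.43 without rebamipide 3.

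Genes listed as brown adipocyte markers had counts with vehicle, where Ucp1 was at 0. Bulk RNA does not show which cells made them. With vehicle, Cox8b had 311, 1337 and 1653 counts, the order of the fast muscle markers given below, and Elovl3 had 8788, 6332 and 11150. With rebamipide, Cox8b had 9634, 10425 and 13126 counts, opposite to the order of those muscle markers. The lipid droplet protein gene Cidea had 779, 1673 and 2728 counts with vehicle and 47135, 76597 and 92845 with rebamipide. Of the 6 brown adipocyte markers, 3 rose in edgeR's quasi-likelihood test, namely Cidea (log2 fold change 6.23, SE 0.70, adjusted p = 0.00939), the cytochrome oxidase subunit Cox8b (4.16, SE 0.68, adjusted p = 0.0139) and the proton channel Otop1 (9.99, SE 0.78, adjusted p = 0.00939). The fatty acid elongase Elovl3, with a log2 fold change of −1.45, was not called by edgeR (adjusted p = 0.0575) but was lower at an unadjusted p under 0.05 and in DESeq2. Zic1 and Lhx8, transcription factors of classical brown fat, were not called either, with log2 fold changes of 0.09 and 1.06. The summed FPKM of the 6 markers was 155.7 to 333.9 with vehicle and 2203 to 3558 with rebamipide. Per unit of Cidea FPKM, Ucp1 stood at 1.17, 1.96 and 1.10 in rebamipide 1, 2 and 3, and per unit of Cox8b FPKM at 1.85, 4.65 and 2.52. In bulk skin, a larger number of cells of a type and more RNA per cell cannot be told apart.

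**Figure D1:**
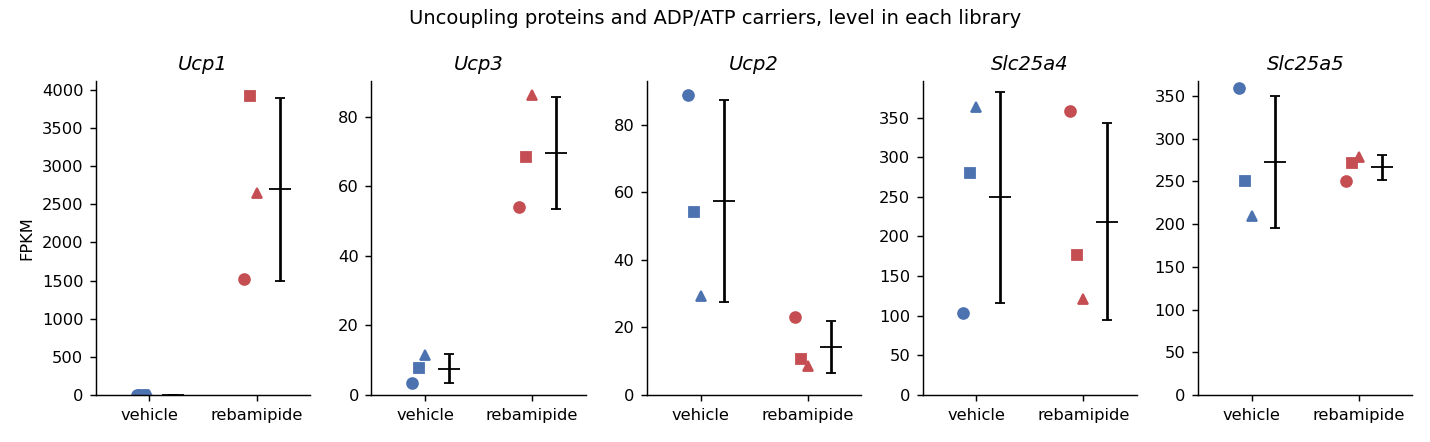
Level of each gene in each library in FPKM, on linear axes that start at 0 and differ between panels. Circles, squares and triangles are replicates 1, 2 and 3 of vehicle (blue) and rebamipide (red), and the black bars are the mean and SD of 3 libraries. Ucp1 is at 0 in all vehicle libraries and at 1515 to 3919 FPKM with rebamipide, Ucp3 is separated upward, Ucp2 downward, and the groups of both carriers overlap. In TMM-normalized CPM the groups of Ucp2 overlap too.

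Ucp3 (ENSMUSG00000032942; chromosome 7, 100122197 to 100135639, plus strand) is the relative best known from skeletal muscle and brown fat. It had 409, 974 and 1408 counts with vehicle and 5541, 7359 and 9371 with rebamipide. All rebamipide libraries lay above all vehicle libraries, and within both groups replicate 1 was lowest and replicate 3 highest. In FPKM it was 3.34, 7.78 and 11.6 with vehicle and 54.0, 68.3 and 86.1 with rebamipide, or 7.58 ± 4.14 against 69.5 ± 16.1 (SD, n = 3 each). The fitted log2 fold change was 3.83 (SE 0.56), or 3.61 without rebamipide 3. The 10 fast muscle markers, led by the actin Acta1, summed to 3738, 14200 and 16890 FPKM in vehicle 1, 2 and 3, the same order as Ucp3, and to 17370, 2835 and 114.4 FPKM in rebamipide 1, 2 and 3, the opposite order. Their part in the level of Ucp3 was not tested. Of the 10 markers 0 were called by edgeR's quasi-likelihood test, 0 had an unadjusted p under 0.05, and 0 were called by DESeq2. Of the 6 slow muscle markers, 4 rose, namely Myh7, Tnnc1, Myl2 and Myl3, and their sum was 1.21 to 7.06 FPKM with vehicle and 116.3, 38.74 and 2.505 with rebamipide.

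Ucp2 (ENSMUSG00000033685; chromosome 7, 100142544 to 100151227, plus strand) begins 6905 bases after the end of Ucp3 and is transcribed in the same direction. It is made by many tissues, immune cells among them, and is linked to the use of metabolic fuels more than to heat. It had 24264, 15120 and 7883 counts with vehicle and 5240, 2586 and 2088 with rebamipide. In FPKM it was 88.8, 54.2 and 29.2 with vehicle and 22.9, 10.8 and 8.61 with rebamipide, or 57.4 ± 29.9 against 14.1 ± 7.72 (SD, n = 3 each), and all rebamipide values were below all vehicle values. In TMM-normalized CPM the groups overlapped, since rebamipide 1 at 172.5 was above vehicle 3 at 168.6. The share of all genes with separated groups was computed on that scale only. The fitted log2 fold change was −1.45 (SE 0.48). It was −1.02 without vehicle 1 and −1.22 without rebamipide 3. Ucp2 thus went the opposite way to its neighbour Ucp3, and the ratio of Ucp3 to Ucp2 in FPKM was 0.0376, 0.144 and 0.398 with vehicle and 2.36, 6.344 and 10.01 with rebamipide.

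Marker sums of several cell types stood beside Ucp2, and their part in its level was not tested. The 6 macrophage markers, led by Lyz2, summed to 308.8, 594.5 and 635.9 FPKM in vehicle 1, 2 and 3, the opposite order to Ucp2, and to 472.2, 159.2 and 104.7 FPKM with rebamipide, the same order. The groups overlapped, and 0 of them were called by edgeR (1 had an unadjusted p under 0.05, and DESeq2 called 1). The 6 lymphocyte markers, led by Cd2, summed to 3.31, 6.55 and 11.1 FPKM with vehicle, again opposite to Ucp2, and to 6, 2.54 and 2.15 with rebamipide, the same order. Of the 5 tested, 1 rose, namely Cd79a, while Ptprc stood at −1.78 (adjusted p = 0.108 in edgeR) and was lower at an unadjusted p under 0.05 and in DESeq2. A pair of lists added after the values were seen had the order of Ucp2 within the vehicle group. Since they were added in this way, that order is no test of a link to Ucp2. The sum of 5 genes of cycling cells was 88.8, 41.5 and 23.3 FPKM in vehicle 1, 2 and 3 and 12.4, 3.90 and 1.69 with rebamipide. The sum of 4 genes of the growing hair shaft was 1380, 578.7 and 10.4 FPKM with vehicle and 25.5, 0.0952 and 0 with rebamipide, with Krt31 and Krt34 at 0 counts in rebamipide 2 and 3 and Krt35 and Hoxc13 at 0 in rebamipide 3. Vehicle 1 was the highest library for Ucp2 and for both sums. Neither list held a gene that passed the edgeR test, with 3 and 2 genes at an unadjusted p under 0.05, and DESeq2 called 4 and 0. 

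The table also holds the genes beside the members. Of the 8 tested genes next to or overlapping a member, 0 were called by edgeR's quasi-likelihood test, 2 had an unadjusted p under 0.05, and DESeq2 called 2. C2cd3, which ends 2838 bases before Ucp3, had a log2 fold change of 0.24 (adjusted p = 0.542), and Coa4, after Ucp2, 0.23 (adjusted p = 0.512). Slc25a43, beside Slc25a5, had 133, 75 and 16 counts with vehicle and 9, 0 and 4 with rebamipide (log2 fold change −3.28, SE 1.18, adjusted p = 0.0927), and Cfap97, beside Slc25a4, stood at −0.87 (adjusted p = 0.113). Beside Ucp1, Tbc1d9 stood at −0.25 (adjusted p = 0.474) and Elmod2 at 0.61 (adjusted p = 0.410). Dnajb13 overlaps the last 305 bases of Ucp2 on the opposite strand and had 475, 215 and 50 counts with vehicle and 38, 43 and 31 with rebamipide (log2 fold change −1.86, adjusted p = 0.127). Whether the counting used strand is not given in the sources used here, so reads of that stretch could belong to either gene.

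The makeup of the uncoupling proteins differed fully between the groups. With vehicle, Ucp2 made up 96.4, 87.4 and 71.5% of the summed FPKM of the 3 genes and Ucp3 the rest. With rebamipide, Ucp1 made up 95.2, 98.0 and 96.6%, Ucp3 3.395, 1.708 and 3.136%, and Ucp2 1.44, 0.269 and 0.313%. The sum itself was 92.2, 62.0 and 40.8 FPKM with vehicle and 1591, 3998 and 2747 with rebamipide. The FPKM of Ucp2 divides by a gene length of 6989 bases in the table, against 1636 for Ucp1 and 3135 for Ucp3, so its share depends on that length.

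**Figure D2:**
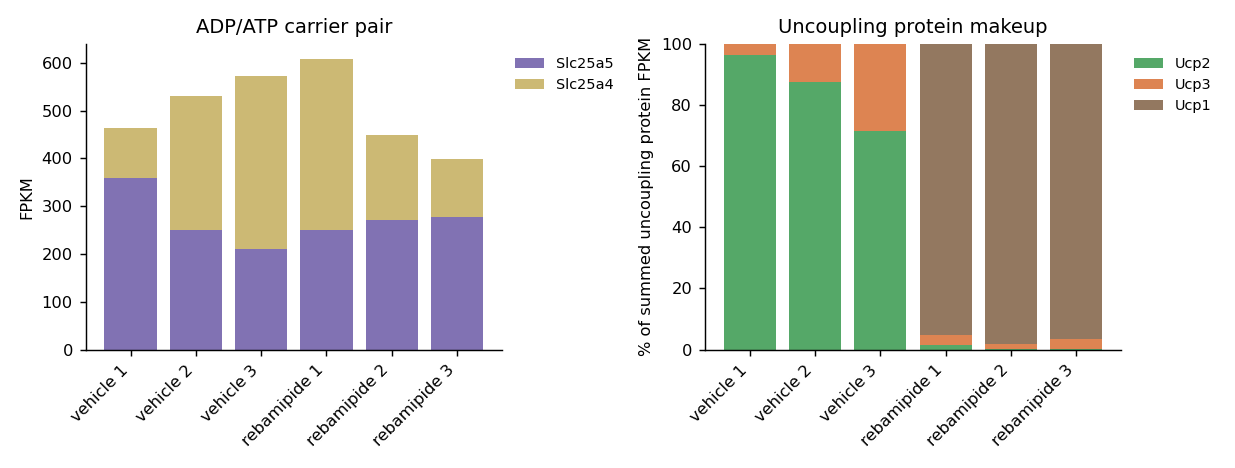
Left, stacked FPKM of the ADP/ATP carriers Slc25a5 and Slc25a4 in each library; right, percent of the summed uncoupling protein FPKM taken by Ucp2, Ucp3 and Ucp1. The carrier pair sums to 399.6 to 608.9 FPKM in all 6 libraries with a changing split, while the uncoupling protein bars turn from Ucp2 with vehicle to Ucp1 with rebamipide.

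Slc25a4 (ENSMUSG00000031633; chromosome 8, 46659834 to 46664321, minus strand) encodes the ADP/ATP carrier of heart and skeletal muscle. It had 9560, 26278 and 33105 counts with vehicle and 27600, 14275 and 9903 with rebamipide. Vehicle 1 and rebamipide 3 were low, vehicle 3 and rebamipide 1 high, and the groups overlapped fully. In FPKM the means were 249.2 ± 132.6 with vehicle and 218.8 ± 124.2 with rebamipide (SD, n = 3 each). Its fitted log2 fold change was 0.36 (SE 0.55) with TMM but −0.19 with total counts alone, −0.03 without vehicle 1 and −0.03 without rebamipide 1, so no direction was given by these libraries. It was 0.62 without rebamipide 3. Fast muscle markers, like the macrophage markers, had the same order of libraries within each group, and their part in its level was not tested. The fast muscle sum in FPKM was 3738, 14200 and 16890 in vehicle 1, 2 and 3 and 17370, 2835 and 114.4 in rebamipide 1, 2 and 3.

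Slc25a5 (ENSMUSG00000016319; chromosome X, 36059304 to 36062460, plus strand) encodes the carrier found in most other tissues. It had 23128, 16465 and 13336 counts with vehicle and 13474, 15366 and 15903 with rebamipide. Its level was 359.4, 250.6 and 209.5 FPKM with vehicle and 250.3, 271.5 and 278.4 with rebamipide, with means of 273.2 ± 77.5 and 266.7 ± 14.7 (SD, n = 3 each). The rebamipide libraries lay inside the range of the vehicle libraries in FPKM. The fitted log2 fold change of 0.61 (SE 0.28) with TMM was −0.04 with total counts alone, which is above the all-gene median on either scale. It was 0.54 without rebamipide 3. Slc25a4 and Slc25a5 are 78.7% identical over their coding sequence, and their longest shared run is 20 bases and neither shares a run of 75 bases with another member. Slc25a5 shares runs of 75 bases with 6 annotated pseudogene copies, none of which is a row of the table, and how reads of those copies were treated is not given in the sources used here.

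The sum of both carriers was 463.4, 530.4 and 573.3 FPKM with vehicle and 608.9, 448.0 and 399.6 with rebamipide. Slc25a4 took 22.4, 52.7 and 63.5% of it with vehicle and 58.9, 39.4 and 30.3% with rebamipide (46.2 ± 21.3 against 42.9 ± 14.6%, SD, n = 3 each). Other mitochondrial genes were set beside the pair. Of 12 reference genes of the respiratory chain, the matrix and import, 11 rose in edgeR's quasi-likelihood test, at a median of 2.70 on the log2 scale, and the import receptor Tomm20 was not called (0.41, adjusted p = 0.131). The summed FPKM of the reference was 1180, 1320 and 1466 with vehicle and 4415, 5481 and 5930 with rebamipide. Among the rises were the complex I subunit Ndufv1 (log2 fold change 3.07, adjusted p = 0.00939), the succinate dehydrogenase subunit Sdhb (3.04, adjusted p = 0.00939), the complex III subunits Uqcrc1 (2.91, adjusted p = 0.00939) and Uqcrc2 (2.71, adjusted p = 0.00939), and the cytochrome oxidase subunit Cox4i1 (2.60, adjusted p = 0.00993). The ATP synthase subunits Atp5a1 (2.32, adjusted p = 0.0104) and Atp5b (2.60, adjusted p = 0.0104), which make the ATP that the carriers export, rose as well.

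Set against that reference sum, which does not include them, the carriers together came to 39.3, 40.2 and 39.1% with vehicle and to 13.8, 8.17 and 6.74% with rebamipide. This ratio was 39.5 ± 0.58% with vehicle and 9.57 ± 3.73% with rebamipide (SD, n = 3 each), so the groups did not overlap. Ucp1, which is not in the reference either, came to 34.3, 71.5 and 44.7% of its sum with rebamipide. In FPKM, Ucp1 exceeded both carriers together 2.49, 8.75 and 6.64 times in rebamipide 1, 2 and 3.

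**Figure D3:**
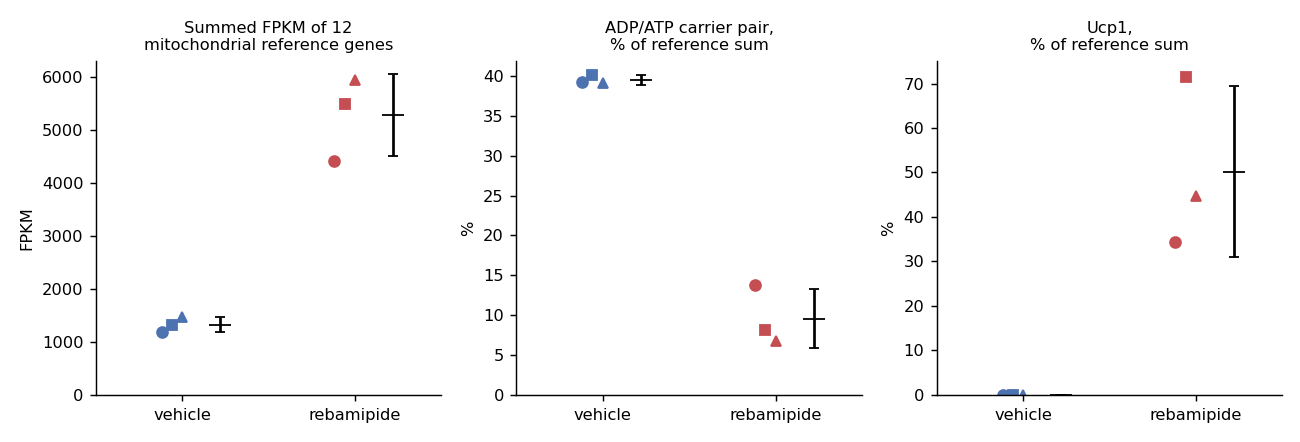
Summed FPKM of 12 mitochondrial reference genes, the ADP/ATP carrier pair as a percent of that sum, and Ucp1 as a percent of that sum, by library. Symbols are replicates 1 (circle), 2 (square) and 3 (triangle), and bars are the mean and SD of 3 libraries. The reference is 1180 to 1466 with vehicle and 4415 to 5930 with rebamipide, and the carrier pair goes from about 39% of it to 6.74 to 13.8%.

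The order of the 5 levels differed between the groups. With vehicle the mean FPKM ran from Slc25a5 (273.2) and Slc25a4 (249.2) over Ucp2 (57.4) and Ucp3 (7.58) to Ucp1 (0), and only the carriers overlapped each other in their ranges. With rebamipide it ran from Ucp1 (2695) over Slc25a5 (266.7), Slc25a4 (218.8) and Ucp3 (69.5) to Ucp2 (14.1), and again only the carriers overlapped. The coefficient of variation between rebamipide libraries was 52.3% for Ucp1, 44.0% for Slc25a4, 41.4% for Ucp2, 32.0% for Ucp3 and 16.7% for Slc25a5, in normalized CPM.

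Around the members, 79 genes of 7 lists were tested, of 83 listed, and 41 rose and 3 fell in edgeR's quasi-likelihood test. On the log2(FPKM + 1) scale with limma the split was 38 and 11. Without vehicle 2, and likewise without rebamipide 2, edgeR called 0 of the 79 at an adjusted p under 0.05, with 45 and 44 of them higher at an unadjusted p under 0.05, while DESeq2 without these libraries still called 47 and 40 as higher. Without rebamipide 3, edgeR called 33 as higher and 1 as lower.

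The fatty acids that open UCP1 come from triglyceride. Of 15 genes of their supply and its control, 12 rose, with 0 lower by edgeR or DESeq2 or at an unadjusted p under 0.05. The 15 had a log2 median of 3.31. The lipase gene Pnpla2, which encodes ATGL, had 5874, 9381 and 15650 counts with vehicle and 59970, 89128 and 107658 with rebamipide (log2 fold change 3.89, SE 0.55, adjusted p = 0.0106). G0s2, which encodes an inhibitor of ATGL, was also among the 12 (3.19, SE 0.47, adjusted p = 0.0117 in edgeR). The 12 are therefore not all genes that raise supply. Hormone-sensitive lipase Lipe rose by 3.05 (SE 0.37, adjusted p = 0.00957), the droplet protein gene Plin5 by 6.73 (SE 0.66, adjusted p = 0.00939) and the fatty acid carrier Fabp4 by 3.31 (SE 0.49, adjusted p = 0.0116) on the log2 scale in the same edgeR fit. The transporter Cd36 rose by 2.36 (SE 0.60, adjusted p = 0.0403), and Cpt2, which completes the entry of fatty acids into mitochondria, by 3.66 (SE 0.35, adjusted p = 0.00939). Slc27a2, an acyl-CoA synthetase, had 2, 0 and 6 counts with vehicle and 3127, 8826 and 9535 with rebamipide (log2 fold change 12.17, SE 1.19, adjusted p = 0.00939). Mgll, Slc27a1 and Cpt1a were not called by edgeR, while DESeq2 called 14 of the 15 as higher, all but Cpt1a. Cpt1a, the liver form of the entry enzyme, stood at −0.83 (adjusted p = 0.167 in edgeR).

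Of 20 known activators of Ucp1 transcription, 11 rose and 1 fell, with a log2 median of 2.44. The nuclear receptor gene Ppara had 186, 378 and 343 counts with vehicle and 3942, 6792 and 7402 with rebamipide (log2 fold change 5.17, SE 0.48, adjusted p = 0.00939 in edgeR). The coactivator Ppargc1b (3.72, SE 0.35, adjusted p = 0.00939), the receptor Esrra (2.27, SE 0.28, adjusted p = 0.00958) and Pparg (2.73, SE 0.51, adjusted p = 0.0191), the master regulator of fat cells, rose as well. Both adrenergic receptors on the list rose, Adrb1 by 4.08 (SE 0.44, adjusted p = 0.00939) and Adrb3, the receptor of fat cells, by 2.64 (SE 0.64, adjusted p = 0.0362). Dio2, which makes active thyroid hormone in brown fat, had 306, 158 and 426 counts with vehicle and 297, 3811 and 1789 with rebamipide, so the groups overlapped in counts although the gene was called (log2 fold change 3.62, SE 0.98, adjusted p = 0.0484). In rebamipide counts, Dio2 was lowest in library 1 and highest in library 2, as were Ucp1, Ppargc1a, Adrb1, Ebf2, Esrrg, Atf2 and Creb1. So was Elmod2 beside Ucp1, while Ppara, Pparg, Ppargc1b and Esrra were highest in rebamipide 3. The match to Ucp1 was not tested. The coactivator Ppargc1a had 454, 1633 and 1310 counts with rebamipide against 178, 478 and 599 with vehicle. It was not called by edgeR (2.30, adjusted p = 0.0594). DESeq2 called 14 of the 20 as higher, Ppargc1a among them, and 1 as lower. Prdm16, which sets the brown and beige identity, rose by 2.59 (SE 0.42, adjusted p = 0.0134). Creb1, through which adrenergic signals reach many promoters, fell by 1.44 (SE 0.29, adjusted p = 0.0228).

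Of the 5 tested repressors of Ucp1, 1 rose and 1 fell, with a median of −0.36. Nr1h3, the oxysterol receptor LXRα, rose by 2.496 on the log2 scale (SE 0.47, adjusted p = 0.0194 in edgeR), and the pocket protein gene Rbl1 fell by 1.73 (SE 0.45, adjusted p = 0.0438). The corepressor Nrip1 stood at −0.74 and was not called by edgeR (adjusted p = 0.0572), but it was lower at an unadjusted p under 0.05 and in DESeq2. Nr0b2 had 0 counts in all 6 libraries.

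Other relatives and partners of the members formed a pair of lists. Of the paralogs Slc25a14, Slc25a27 and Slc25a30, 0 were called by edgeR, 1 had an unadjusted p under 0.05 and DESeq2 called 1, and the median was −0.25. Slc25a27, also known as Ucp4, had 254, 228 and 116 counts with vehicle and 49, 43 and 32 with rebamipide (log2 fold change −1.43, SE 0.41, adjusted p = 0.0538). The germ-cell carrier Slc25a31 had 0 to 14 counts and was not tested. Of 12 tested phosphate, nucleotide and CoA carriers and outer membrane channels, 5 rose and 1 fell, with a median of 0.78. Slc25a42, which carries CoA, rose by 4.93 (SE 0.58, adjusted p = 0.00939 in edgeR), the ATP-Mg/phosphate carrier Slc25a23 by 3.61 (SE 0.47, adjusted p = 0.00993), the pyrimidine nucleotide carrier Slc25a33 by 2.79 (SE 0.45, adjusted p = 0.0137), the peroxisomal carrier Slc25a17 by 1.37 (SE 0.33, adjusted p = 0.0362) and the channel Vdac2 by 1.28 (SE 0.22, adjusted p = 0.0153). Slc25a24, a second ATP-Mg/phosphate carrier, fell by 1.35 (SE 0.23, adjusted p = 0.0158). The phosphate carrier Slc25a3, which supplies ATP synthase beside the ADP/ATP carriers, was not called (0.33, SE 0.23, adjusted p = 0.315).

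Of 12 genes of heat production that does not need UCP1, such as creatine and calcium cycling, 1 was called, and the median was −0.28. This was Alpl, the phosphatase of the creatine cycle, which rose by 1.80 (SE 0.30, adjusted p = 0.0146 in edgeR). The calcium pump gene Atp2a1 had 47025, 202966 and 274785 counts with vehicle and 229660, 37275 and 1231 with rebamipide, the order of the fast muscle markers, and Ckb, the creatine kinase of this cycle, stood at 0.07 (SE 0.24, adjusted p = 0.853).

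**Figure D4:**
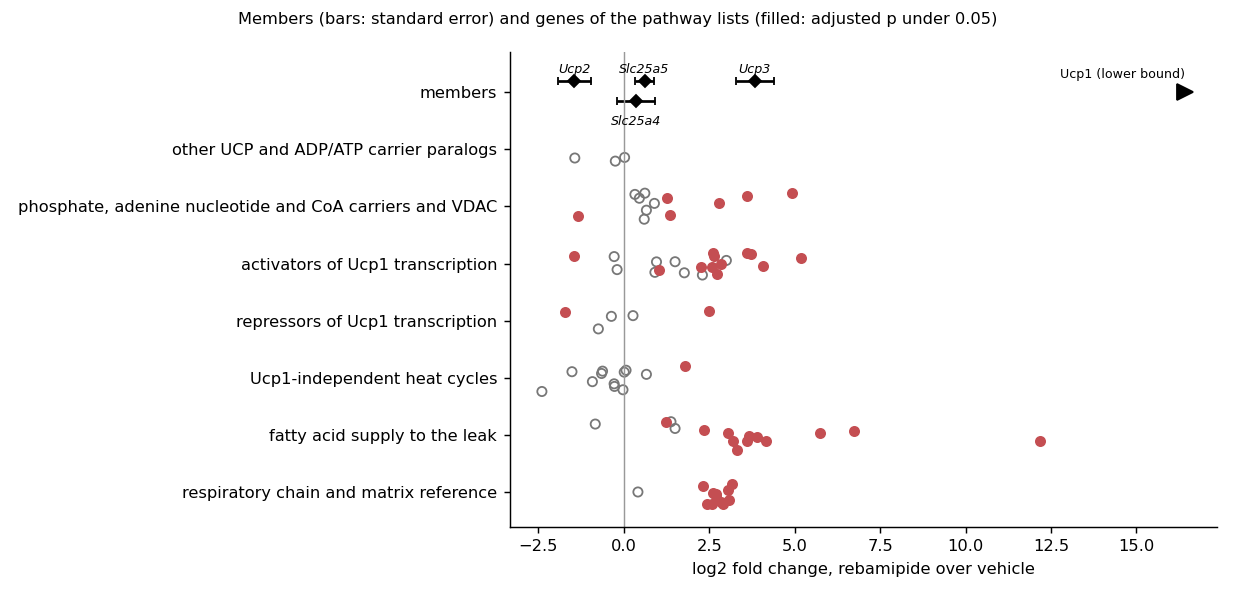
Log2 fold change, rebamipide over vehicle, of the members (diamonds with standard errors; the arrowhead is the lower bound of Ucp1 at 16.43) and of 79 genes in 7 lists (circles, spread vertically for legibility; filled, edgeR adjusted p under 0.05). The reference and fatty acid lists lie mostly between 2 and 7, while the lists of paralogs and heat cycles have medians of −0.25 and −0.28, with single genes from −2.40 (Ckmt1) to 1.80 (Alpl).

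The genes whose profile over the 6 libraries was most like that of each member were found by the root mean square difference of centred log2 CPM among 13378 genes. For Ucp3 they were Fmo1, a monooxygenase (0.0690), Aifm2, an NADH oxidase of the lipid droplet (0.131), and the carboxylesterase Ces1d (0.147). Fmo1 had 1116, 2378 and 3870 counts with vehicle and 14025, 20072 and 25951 with rebamipide. For Ucp2 they were the kinase gene Mark1 (0.0741), Rflna (0.119) and Cenpt, a kinetochore protein gene (0.120). For Slc25a4 they included Npas2 (0.0823) and the glycolytic enzyme Aldoa (0.0903). For Slc25a5, which varied little, they were Cyhr1, Imp4 and Srcap, from 0.0350 to 0.0524, and 4579 genes lay within 0.5. No gene came within 0.5 of Ucp1, for which Slc27a2 (2.71), Otop1 (3.39) and Kng2 (4.24) were nearest.

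**Figure D5:**
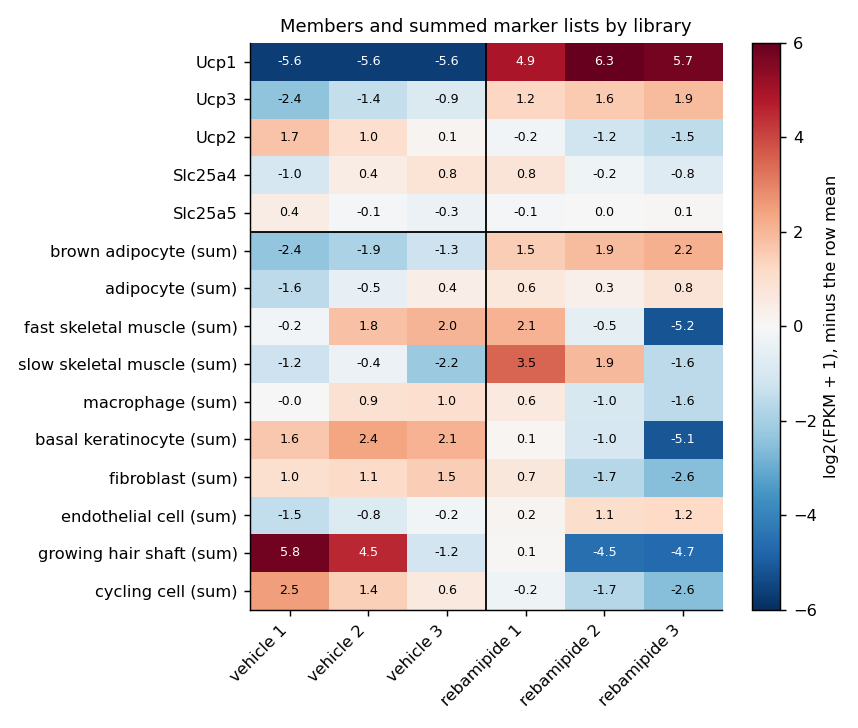
The 5 members (above the line) and the summed FPKM of marker lists by library, as log2(FPKM + 1) minus the mean of each row. Numbers in the cells are these differences. Several sums share the order of a member within each group. They are the brown adipocyte and endothelial sums with Ucp3, the fast muscle and macrophage sums with Slc25a4, and the cycling cell and growing hair shaft sums with Ucp2. The lists of cycling cells and growing hair shaft were added after the values were seen. These matches rest on 3 libraries per group and were not tested.

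Sums of other cell type markers are given beside these levels, and their part in the members' levels was not tested. The 6 general adipocyte markers, led by Cfd, summed to 808.7 to 3184 FPKM with vehicle and 3037 to 4126 with rebamipide, and 3 rose, namely Adipoq, Plin1 and Pck1. The fat hormone gene Lep was not called (log2 fold change −0.53, adjusted p = 0.486). The 5 endothelial markers, led by Cd36, summed to 142.3 to 355.5 FPKM with vehicle and 455.0 to 931.0 with rebamipide, and 4 rose, namely Cdh5, Kdr, Tie1 and Cd36. Cd36 is also on the fatty acid list and made up most of this sum. Its mean was 178.7 FPKM with vehicle and 578.1 with rebamipide. The 5 red blood cell genes, led by Hbb-bs, summed to 66.9 to 302.6 and 402.4 to 763.6 FPKM, and 3 rose, namely Hba-a1, Hbb-bs and Alas2. The 5 fibroblast markers, led by Col1a1, summed to 1339 to 1909 FPKM with vehicle and to 1085, 204.7 and 114.1 FPKM with rebamipide. Of these 0 were called by edgeR, 2 had an unadjusted p under 0.05, and DESeq2 called 2. Of the 10 keratinocyte markers, 0 were called by edgeR and DESeq2 and 0 had an unadjusted p under 0.05.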

How the data were processed

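Poly-A RNA of 3 vehicle and 3 rebamipide skins was sequenced. The authors deposited 1 table of raw counts and FPKM per gene. The deposited counts are whole numbers without normalization, and 100% of the deposited FPKM follow, within 0.1%, from counts, gene length and library total. The submitters' processing notes name fastp 0.22.0, HISAT2 2.1.0, HTSeq 0.9.1 and GRCm39. The promoters come from RefSeq on GRCm38.p6, and shared coding runs from GENCODE transcripts. No coordinates were converted.

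Groups were taken from the labels. Counts were fitted in R 4.3.3 with edgeR 4.0.16 (TMM, filterByExpr, quasi-likelihood test, Benjamini-Hochberg over 14875 genes, no covariate), after a check on simulated counts. Alternatives were DESeq2 1.42.0, limma 3.58.1 (voom, and log2(FPKM + 1)), RLE, upper quartile or total counts alone, other filters, the study's thresholds, a replicate block, and each library left out in turn. DESeq2 with each library left out was chosen after seeing the data. Levels are compared between genes in FPKM only. A gene at 0 counts in a group got a bound against 3 counts per library.

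The members and lists were chosen with earlier results of these data known. Of a pathway list, genes called were named if 8 or fewer, otherwise the 4 with the smallest p and the 3 highest in FPKM, with genes not called where needed. Of a marker list, the gene highest in FPKM and those at 0 counts were named. Dio2, Prdm16, Ebf2, G0s2, the other marker genes named and the lists of cycling cells and growing hair shaft were added after their values were seen. Of the 83 genes listed, 82 were in the table. The same numbers did not pair the libraries. 1 gene near Slc25a4 in profile is not reported here.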

Additional observations from a re-analysis of the deposited data

How the results depend on the processing

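The log2 lower bound of Ucp1 (15.79 to 16.77) and the log2 fold changes of Ucp3 (3.14 to 4.30) and Ucp2 (−2.03 to −1.02) kept their direction in every alternative run. That of Slc25a4 reversed with total counts alone (−0.19) and on the log2(FPKM + 1) scale (−0.15), and ran from −0.031 to 0.78 when a library was left out. That of Slc25a5 was −0.036 with total counts alone and 0.0010 on the log2(FPKM + 1) scale, and 0.47 to 0.80 when a library was left out. The cause was not tested. The number of list genes that rose was 36 to 47 in the settings that kept all libraries, against 41. With a library left out it was 0 to 48 in edgeR and 40 to 52 in DESeq2. The smallest adjusted p was 0.0747 without vehicle 2 and 0.0573 without rebamipide 2. The number that fell, 3, was 5 with the upper quartile, 5 with the filter of 10 counts, 5 with DESeq2, 7 with total counts alone and 11 on the log2(FPKM + 1) scale. With a library left out it was 0 to 4 in edgeR and 4 to 7 in DESeq2. With a replicate block, 43 rose, 39 of them shared with the 41, and 1 fell. The replicate numbers did not pair the libraries, since the deviations of same-numbered libraries correlated at −0.0164, −0.0382 and 0.00316. Of the 3 genes nearest in profile, 2 were shared with a smaller prior count for Ucp1, Ucp2 and Slc25a5.

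With 3 mice per group, p-values measure the spread between these mice. The floor of 3 counts limits Ucp1 with vehicle, and the other members had at least 409 counts in every library. The mitochondrial share of counts and the epidermal, muscle and brown fat markers differed between libraries. The study's methods describe full-thickness skin, but the sources used here give no check of the layers in each piece, so a difference in the layers sampled and an effect of treatment cannot be told apart for any member, Ucp1 included.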
